A study of Mus musculus with 3 samples.

Results

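The complement components and receptors described here are 8 genes of the 55536 in the gene tables, chosen by symbol: C3, Cfb, Cfp, C1qa, C1qb, C1qc, C3ar1 and C5ar1. Their RNA was measured in the chromatin fraction of bone-marrow-derived macrophages (BMDM), macrophages grown in culture from mouse bone marrow, here of strain C57BL/6J. The cells had received 100 ng/ml Lipid A, the part of bacterial lipopolysaccharide that Toll-like receptor 4 recognises, 60 min before fractionation. The 3 libraries, of total RNA depleted of ribosomal RNA, form 1 group, labelled biological replicates 1, 2 and 3, made from 1 µg, 250 ng and 500 ng of RNA. Sex and age were not collected, every library has the same donor entry, and no unstimulated library was analysed here. Every value is therefore a level after stimulation, and SDs and p-values describe the scatter of these 3 libraries, part or all of which may be technical. RNA on chromatin includes transcripts still being made or spliced, and no protein was measured.

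Complement is a cascade of blood and tissue proteins that marks microbes and dying cells for uptake. C1q starts the classical pathway when it binds antibody or other surfaces, and the alternative pathway, with factor B and properdin, amplifies the cleavage of C3, on which all pathways converge. Cleavage of C3 and C5 releases the small peptides C3a and C5a, which act on receptors of myeloid cells. The liver makes most circulating complement, while macrophages are a local source and the main source of C1q.

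The cell label was checked against marker genes. All 10 macrophage markers had at least 1 TPM (a level per transcript length, scaled to the same total in each library) in every library, with a summed level of 562 to 820 TPM. No hepatocyte marker of 6 had a count, Alb, Apoa1 and Ttr included. None of 7 neutrophil, 6 fibroblast or 8 T and B cell markers reached that level in every library, and 1 of 6 dendritic markers did, Batf3. The summed levels were 0.02 to 0.34, 0.14 to 1.48, 0.57 to 1.99 and 4.34 to 5.56 TPM in that order. The fibroblast collagens Col1a1, Col1a2 and Col3a1 were at 0 in replicate 1 and between 0.36 and 0.58 TPM in the other libraries. A second deposited table, described below, put 1 fibroblast, 2 T and B cell and 3 dendritic markers at 1 TPM or more in every library. It put all 10 macrophage markers there, and no hepatocyte or neutrophil marker. The gene tables held 13318395, 15352661 and 15812581 expected counts for replicates 1, 2 and 3, and protein-coding genes took 19.0%, 23.9% and 22.5% of the TPM. Counting error falls with depth: the limit that a count of 0 allows, 3 counts, was 0.225, 0.195 and 0.190 CPM (expected counts scaled to the gene total of the library).

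Of the 8 genes, 7 had at least 1 TPM in each library, beside 35.7% of 22015 nuclear protein-coding genes. Cfb was the exception. In order of mean TPM the genes ran C3, Cfp, C5ar1, C1qb, C1qc, C3ar1, C1qa and Cfb, from 139 to 0.463 TPM. Their median log2(TPM + 1) was 4.57 ± 0.47 (SD, n = 3), beside 0.29 over all nuclear protein-coding genes. The genes were chosen with earlier results of these data known, so these shares and medians only describe the choice. A second deposited transcript table, with columns that kallisto writes, put all 8 genes at 1 TPM or more in each library, beside 50.0% of coding genes. In bulk RNA, fewer cells that express a gene and less RNA per cell cannot be told apart.

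**Figure D1:**
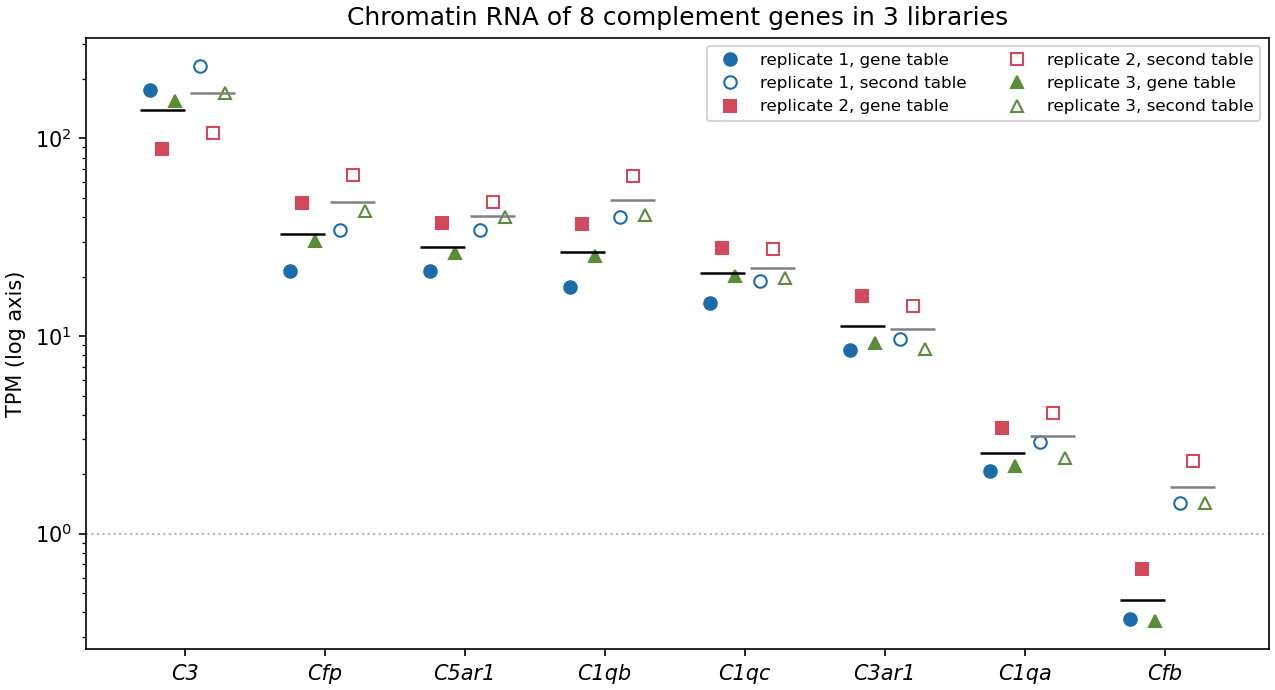
Level of each gene in TPM (log axis) in the 3 libraries, with filled symbols for the gene table and open symbols for the second table. Lines mark means of 3 libraries and the dotted line marks 1 TPM. C3 lies highest with either table, and Cfb has the largest ratio between the means of the tables, 0.463 against 1.73 TPM.

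C3 encodes the central component of the cascade. It lies on the minus strand of mm10 chromosome 17 from 57203970 to 57228136, as all 8 genes lie on the minus strand of their chromosomes. C3 had 175 TPM in replicate 1, 87.9 in replicate 2 and 154 in replicate 3, a mean of 139 ± 45.5 TPM (SD, n = 3) and rank 267 among coding genes. Replicate 2 stood apart at the low end. The counts behind these levels were 11304, 5274 and 9232, and the deposited intervals of C3's TPM, whose confidence level is not stated, ran from 159 to 175, 77.1 to 90.7 and 137 to 153 TPM. The TPM of replicates 1 and 3 lay just above their own upper bounds. The interval of replicate 2 overlapped neither of the others. The level in the second table was 234, 106 and 169 TPM, again lowest in replicate 2. The mean of 139 TPM, and the rank, include 43.5 TPM of C3-202, a short isoform described below. That isoform held 3.81% of the counts of C3, and the coding transcript C3-201 alone had a mean of 95.6 TPM.

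Cfp encodes properdin, the stabiliser of the alternative-pathway C3 convertase, and lies on chromosome X from 20925454 to 20931555. It had 21.4, 47.2 and 30.3 TPM in replicates 1, 2 and 3, a mean of 33.0 ± 13.1 TPM (SD, n = 3). Here replicate 2 was the highest library. C3 exceeded Cfp in each library, by 2.06 ± 1.07 on the log2(TPM + 1) scale (SD, n = 3), and the TPM ranges of the genes did not overlap.

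Cfb encodes factor B, the protease of the same convertase, and lies on chromosome 17 from 34856374 to 34862518. It had 0.37, 0.66 and 0.36 TPM, from 10.8, 28 and 15 expected counts. These levels lay below the 1 TPM line in every library, and the tables differed on their size. The second table gave 1.43, 2.33 and 1.43 TPM, and the posterior mean in the gene table was 0.973 TPM over the 3 libraries. All 3 TPM values of Cfb also lay below the lower bounds of their own deposited intervals, 0.41, 0.727 and 0.425 TPM. In the annotation, Gm20547, a gene that runs across Cfb into its neighbour C2, contains 75.5% of the 31-base words of the Cfb transcripts. Gm20547 itself had 0.08, 0 and 0 TPM in the gene table and 0.252, 0 and 0 TPM in the second. The part of this overlap in the difference between tables was not tested. The microRNA gene Mir6972 lies inside Cfb and Mir6978 inside C3, and neither had a count in the gene tables.

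C1qa, C1qb and C1qc encode the chains that together form C1q. They are neighbours on chromosome 4, at 136895917 to 136898803, 136880129 to 136886187 and 136889804 to 136893065. C1qb had 17.8, 37.1 and 25.3 TPM in replicates 1, 2 and 3, a mean of 26.7 ± 9.71 TPM (SD, n = 3). C1qc followed with 14.8, 27.8 and 20.1 TPM, a mean of 20.9 ± 6.55 TPM (SD, n = 3). C1qa was lower, with 2.08, 3.43 and 2.20 TPM and a mean of 2.57 ± 0.747 TPM (SD, n = 3). The chains shared an order in every library, C1qb above C1qc above C1qa, and the ranges of C1qa overlapped neither of the others.

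The ratio of C1qb to C1qa TPM was 8.56, 10.8 and 11.5 in the 3 libraries, a mean of 10.3 ± 1.55 (SD, n = 3), and that of C1qc to C1qa was 8.11 ± 1.01 (SD, n = 3). The pair C1qb and C1qa was chosen for display after its values were seen. Their effective transcript lengths were alike, 855 and 807 bases, so the gap is present in the counts: 289, 527 and 367 for C1qb against 32, 46 and 30 for C1qa. The second table gave mean ratios of 15.5 ± 1.70 for C1qb and 7.13 ± 0.876 for C1qc over C1qa (SD, n = 3). None of the C1q transcripts shared a 31-base word with another gene. The chains were not measured alike, since C1qa and C1qb have 1 transcript each. The level of C1qc includes C1qc-202, described below, which reaches into an intron and held 55.1% of the gene's TPM. The coding transcript C1qc-201 alone had 6.53, 12.8 and 8.88 TPM, so the ratio for C1qc is smaller on that transcript. The gap between chains was larger than the spread between libraries with either table, while its size for C1qb was not the same in each.

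C3ar1 encodes the receptor of C3a and lies on chromosome 6 from 122847138 to 122856161. Its level was 8.51, 16.0 and 9.25 TPM in replicates 1, 2 and 3, a mean of 11.2 ± 4.10 TPM (SD, n = 3), with replicate 2 highest. The ratio of C3 to C3ar1 TPM was 20.6, 5.51 and 16.7, so ligand precursor and receptor kept their order but not their distance.

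C5ar1 encodes the main receptor of C5a and lies on chromosome 7 from 16246743 to 16259540. It had 21.3, 37.5 and 26.3 TPM, a mean of 28.4 ± 8.30 TPM (SD, n = 3). Its expected counts were nearly flat, 893, 955 and 887, or 67.1, 62.2 and 56.1 CPM, so replicate 2 was highest in TPM and not in CPM. The average effective length that the gene table used for C5ar1 was 2280, 1494 and 1970 bases. That length follows the mix of isoforms assigned in each library, described below.

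Neighbours in the order of levels were compared within each library as differences of log2(TPM + 1). Of 7 neighbouring pairs, 6 differed by more than the SD between libraries, each with the same sign in all 3 libraries, and in 3 of the 7 the TPM ranges did not overlap. Those 3 were C3 and Cfp, C3ar1 and C1qa (1.75 ± 0.17, SD, n = 3), and C1qa and Cfb (1.27 ± 0.13, SD, n = 3). The order was taken from these same values, which favours a positive sign in each pair. Cfp and C5ar1, among the 6, differed by 0.17 ± 0.16 (SD, n = 3), with only 0.0039 in replicate 1. With the second table they differed by 0.18 ± 0.23 (SD, n = 3), within their spread. C5ar1 and C1qb did not differ beyond their spread (0.11 ± 0.12, SD, n = 3), and the second table put C1qb above C5ar1 by 0.23 on that scale. A permutation test that flips signs (exact, two-sided) gave p = 0.25 for every pair, the smallest that 3 libraries allow, and 0.25 after adjustment over the 7 pairs.

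Replicate 2 divided the genes. Its library was the lowest of the 3 for C3 alone, 1 of 8 genes, beside 11.4% of the 6132 coding genes with a mean of at least 100 expected counts. It was the highest for the other 7, beside 61.5% of those coding genes, so a gene highest in replicate 2 was the usual case and a gene lowest there was not. Of the 7, C1qa (mean of 36 expected counts) and Cfb (17.9) lie below the minimum set for the coding genes. The shares of coding genes under other measures use the same minimum. C3 lay 0.89 below the mean of replicates 1 and 3 on the log2(TPM + 1) scale, while the median coding gene lay 0.24 above it. Of the 6132 genes, 31 (0.506%), C3 itself included, lay at least as far down as C3. This look at replicate 2 was not planned, and C3 was singled out after its values were seen. As a ratio, the mean C3 level of replicates 1 and 3 was 1.87 times that of replicate 2. No test was made, since 1 library stands against the others.

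**Figure D2:**
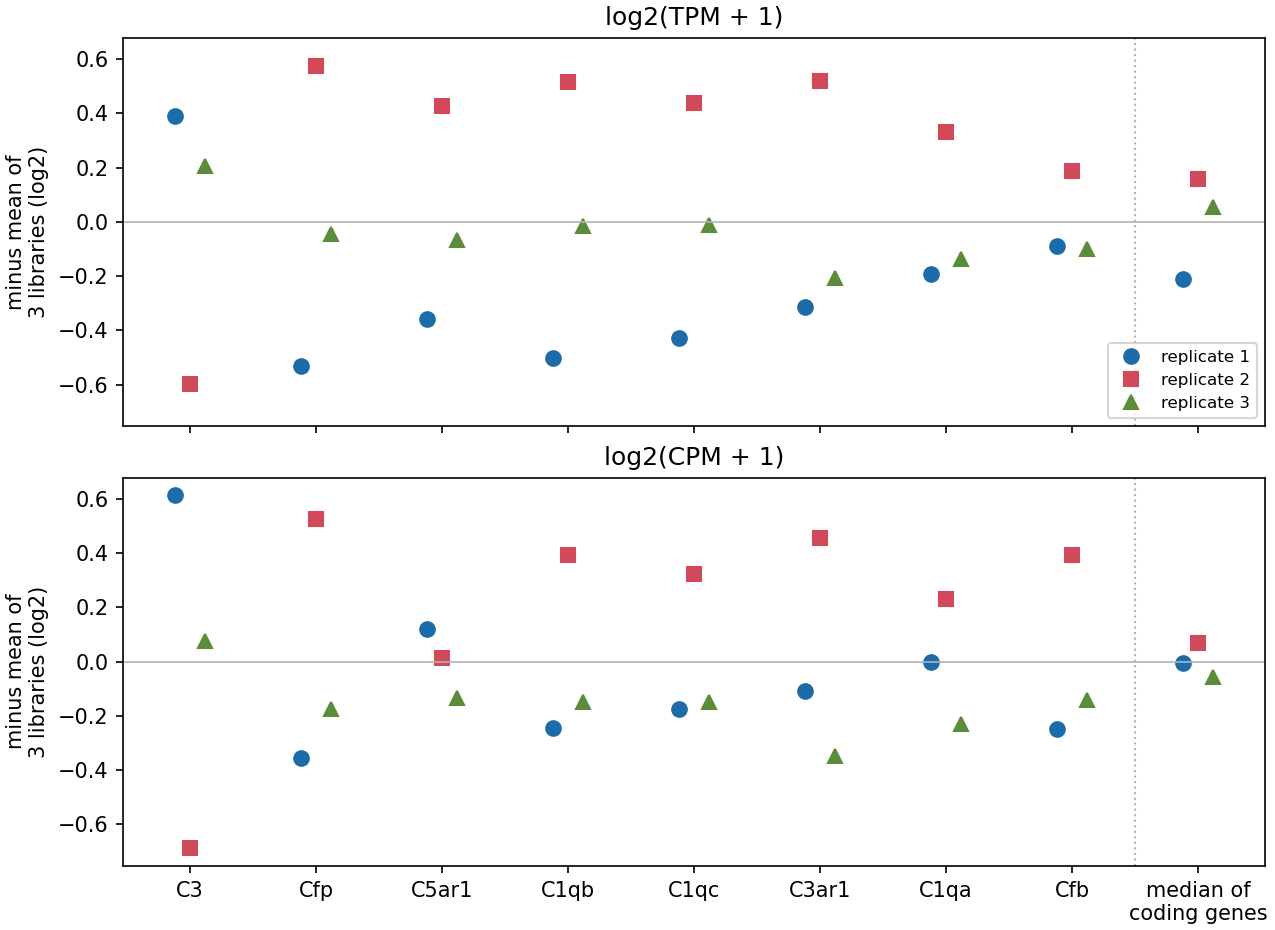
Difference of each library from the mean of the 3 libraries for the 8 genes and for the median of coding genes, on the log2(TPM + 1) scale above and the log2(CPM + 1) scale below. Replicate 2 (squares) lies below 0 for C3 and above 0 for the others, with C5ar1 at 0.01 on the CPM scale.

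Other measures kept C3 lowest in replicate 2: CPM (beside 26.7% of coding genes), the second table (16.7%) and TPM over coding genes only (32.2%). The genes highest there numbered 6 of 8 in CPM, beside 52.4% of coding genes, as C5ar1 left the set. They numbered 7 of 8 in the second table, beside 64.4%, and 7 of 8 over coding genes only, beside 44.1%. Replicate 2 also had the smallest amount of starting RNA and the largest coding share of TPM. In TPM, 7 of the 10 macrophage markers were highest in it, beside the 61.5% of coding genes given above. Among those 7 were Csf1r (68.0, 123 and 67.3 TPM) and Itgam (5.77, 13.9 and 6.11 TPM). The other 3 were highest in replicate 3: Adgre1 (56.2, 55.6 and 60.2 TPM), Mertk (75.8, 85.8 and 96.4 TPM) and Cd14 (97.5, 185 and 190.4 TPM). The part of starting amount and library composition in the C3 difference was not tested.

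The SD of log2(TPM + 1) over the 3 libraries was 0.55 for Cfp, the largest of the 8, and 0.52 for C3, beside a median of 0.24 over coding genes. On other scales C3 varied more than Cfp: 0.57 against 0.46 with the second table, 0.68 against 0.41 with TPM over coding genes, and 0.72 against 0.39 with CPM scaled by TMM factors. Without replicate 2 the SD of log2(TPM + 1) was 0.13 for C3 and 0.34 for Cfp. Among 3486 coding genes with a mean of at least 10 TPM, those whose centred log2(TPM + 1) values over the 3 libraries lay nearest to C3 were Trim21 (root-mean-square distance 0.0752), Tle3 (0.0847) and Sh3bp5 (0.0911), and 4 genes lay within 0.1. Trim21, for example, had 20.7, 11.4 and 18.9 TPM. Nearest to Cfp were Cct5 (0.00901), Slc11a1 (0.0121) and Mindy1 (0.0143), with 78 genes within 0.1. With 3 libraries such likeness is a description of these samples alone.

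The stretch before the start of C3 and that of its receptor gene C3ar1 are shown because these genes differed in opposite directions in replicate 2. C3ar1 was among the 7 genes highest there, and no link of sequence to this difference was tested. Sequences are from RefSeq on GRCm38.p6, where the promoter table used here matched 6 of the 8 genes, C1qa and Cfb not among them, and are written 5′ to 3′ along the minus strand, as chr17:57228137-57228386 for C3 and chr6:122856162-122856407 for C3ar1. The C3ar1 stretch has 246 bases, as it stops where the GENCODE gene begins, 4 bases short of the RefSeq start. Capitals mark motif matches, whose distances below are counted from the RefSeq start.

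C3: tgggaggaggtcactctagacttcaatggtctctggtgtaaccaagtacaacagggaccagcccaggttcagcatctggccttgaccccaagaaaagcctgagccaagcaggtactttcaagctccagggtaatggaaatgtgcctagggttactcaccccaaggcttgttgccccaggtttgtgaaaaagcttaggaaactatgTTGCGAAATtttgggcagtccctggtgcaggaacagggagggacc

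C3ar1: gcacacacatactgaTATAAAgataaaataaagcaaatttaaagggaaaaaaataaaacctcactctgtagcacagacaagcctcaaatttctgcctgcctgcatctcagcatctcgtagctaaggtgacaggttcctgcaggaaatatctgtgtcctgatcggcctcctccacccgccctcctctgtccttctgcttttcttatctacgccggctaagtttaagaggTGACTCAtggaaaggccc

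Motifs were searched on both strands over the 250 bases before each RefSeq start. The capitals in C3 match the motif of C/EBP (TTGCNNAAT), a family of activators of myeloid and acute-phase genes, 45 to 37 bases before the start. That motif was in 2.11% of 32817 promoters of the same length. The second match in C3ar1, 22 to 16 bases before the start, is to the AP-1 motif (TGANTCA), which reads as a match on either strand and was in 6.75% of promoters. The other is a TATA motif (TATAAA), 235 to 230 bases before the start, found in 12.4%. Among the 6 listed genes a kappa B motif was in C1qc only (3.90% of promoters), the GAGGAA core bound by PU.1 and other ETS factors was in C1qb and C1qc (23.3%), and an interferon response motif was in none (2.97%). Of the bases searched, 99 of C1qc and 48 of C5ar1 lie before the GENCODE gene, and the rest lie inside it. The kappa B match of C1qc, 41 to 32 bases before the RefSeq start, is inside the annotated gene. A match describes letters, not binding.

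Isoforms were examined next, since chromatin RNA can hold introns. The tables have rows for annotated transcripts only, so intron sequence outside those has no value here. None of the 8 genes has an annotated retained-intron transcript, and none could enter a test of retained-intron against coding isoforms. C1qa, C1qb and C3ar1 have 1 transcript each. C3, C1qc and Cfp each have a processed transcript, a class with no coding frame, and this class was set against the coding transcripts after the annotation had been seen.

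The processed transcripts C1qc-202 and Cfp-202 run past an exon end of the coding transcript into the intron. The junctions are shown because these bases are what separates the isoforms: lower case is the last 60 bases of the exon, and capitals are the first 60 intron bases, which the coding transcript removes. They are given 5′ to 3′ along the minus strand of mm10, as chr4:136892319-136892438 at exon 2 of 3 for C1qc-201 and chrX:20927221-20927340 at exon 8 of 9 for Cfp-201.

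C1qc: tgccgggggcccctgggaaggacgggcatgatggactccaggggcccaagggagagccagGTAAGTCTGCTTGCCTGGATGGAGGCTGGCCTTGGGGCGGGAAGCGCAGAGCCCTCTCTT

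Cfp: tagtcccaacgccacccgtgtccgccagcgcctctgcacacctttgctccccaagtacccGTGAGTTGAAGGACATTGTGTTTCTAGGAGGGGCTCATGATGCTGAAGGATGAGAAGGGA

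Both intron stretches begin with GT, the usual first bases of a mouse intron. Of the 946 bases of C1qc-202, 728 lie in an intron of C1qc-201, whose length is 1779 bases. Of the 401 bases of Cfp-202, 100 lie in an intron of Cfp-201. RNA of these genes not yet spliced holds the same intron bases. The levels and shares of C1qc-202 and Cfp-202 below cannot be told apart from such RNA. C3-202 differs little from the coding transcript, as 655 of its 662 bases lie in exons of C3-201.

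**Figure D3:**
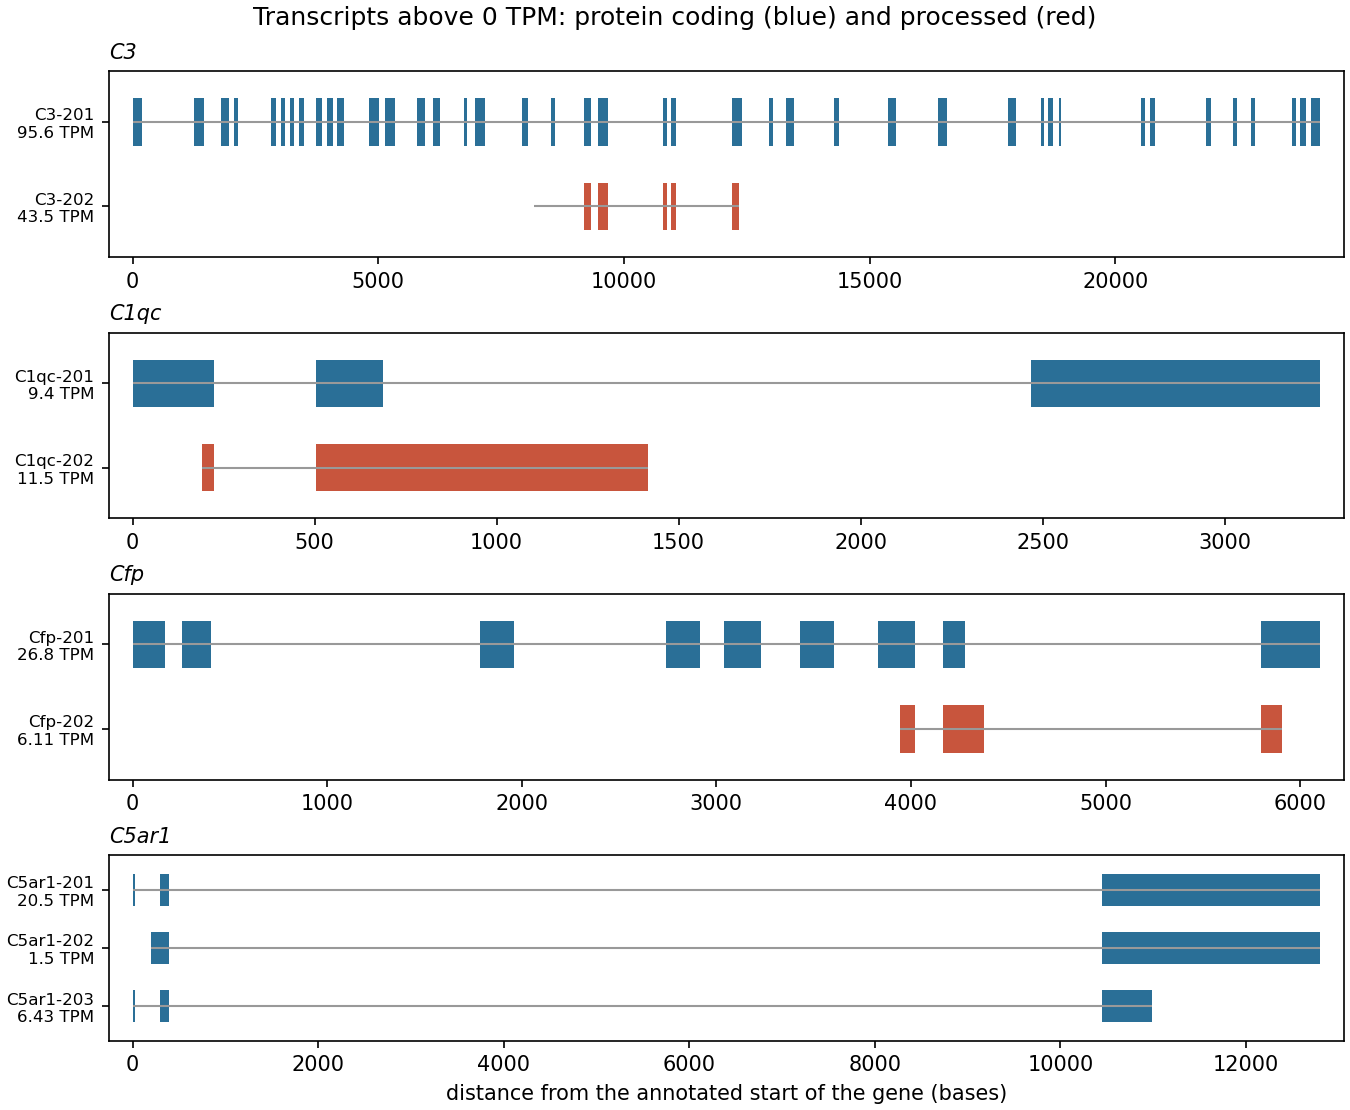
Exons (boxes) and introns (lines) of the transcripts above 0 TPM of C3, C1qc, Cfp and C5ar1, by distance in bases from the annotated gene start, with mean TPM of 3 libraries. Protein-coding transcripts are blue and processed transcripts red, and the long second exon of C1qc-202 extends into the intron of C1qc-201.

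C1qc-202 had 8.23, 15.0 and 11.2 TPM beside 6.53, 12.8 and 8.88 TPM for C1qc-201. Its share of the gene's TPM was 55.1% ± 1.06 (SD, n = 3) and that of its counts was 47.5% ± 1.24 (SD, n = 3). The share varied little between libraries although the level of C1qc ranged 1.88-fold. The log2 ratio of processed to coding TPM was 0.28 (SE 0.19, limma adjusted p = 0.203), which did not pass the threshold. The second table gave a share of 50.2% ± 1.74 (SD, n = 3).

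Cfp-202 had 5.19, 7.31 and 5.84 TPM beside 16.2, 39.8 and 24.5 TPM for Cfp-201, a share of 19.7% ± 4.40 (SD, n = 3). The log2 ratio was -1.97 (SE 0.22, limma adjusted p = 0.000335), lower in 3 of 3 libraries. Only 19.1, 19.5 and 16.6 expected counts lay behind the processed transcript, which is short, and the second table gave a share of 31.8% ± 2.94 (SD, n = 3).

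C3-202 had 55.6, 26.8 and 48.0 TPM beside 120, 61.2 and 106 TPM for C3-201, a share of 31.1% ± 0.638 of TPM (SD, n = 3) but 3.81% ± 0.304 of counts (SD, n = 3). Both isoforms were lowest in replicate 2. The log2 ratio was -1.14 (SE 0.15, limma adjusted p = 0.000602), lower in 3 of 3 libraries. With TPM averaged over annotated transcripts in place of summed, it turned to 0.43 (limma adjusted p = 0.0324), since C3 has 3 coding transcripts and C3-203 and C3-204 had 0 TPM. As nearly all bases of C3-202 are also in C3-201, few bases separate the levels of these isoforms.

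Over all 3871 genes tested for this ratio, 10.2% were higher and 69.1% lower for the processed class, with a median of -1.65. Of the 3 complement genes, 0 were higher and 2 were lower. C3 and C1qc lay above the median ratio and Cfp lay below it. With the second table the median was -0.57, and C3 (-1.24) lay below it as Cfp did (-1.08).

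C5ar1 has 3 coding transcripts. C5ar1-201 was level, with 20.3, 19.8 and 21.3 TPM, a mean of 20.5 ± 0.764 TPM (SD, n = 3). C5ar1-203, a short form whose 674 bases all lie in exons of C5ar1-201, had 0, 15.3 and 3.96 TPM from 0, 110 and 29.3 expected counts. C5ar1-202 had 1.05, 2.39 and 1.05 TPM. The higher TPM of C5ar1 in replicate 2 thus came with TPM assigned to C5ar1-203, and the second table also gave that form its highest value there, 7.72, 26.7 and 19.1 TPM. In that table, however, C5ar1-201 took 42.2% ± 14.2 of the gene's TPM, against 76.3% ± 21.5 in the first (SD, n = 3).

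**Figure D4:**
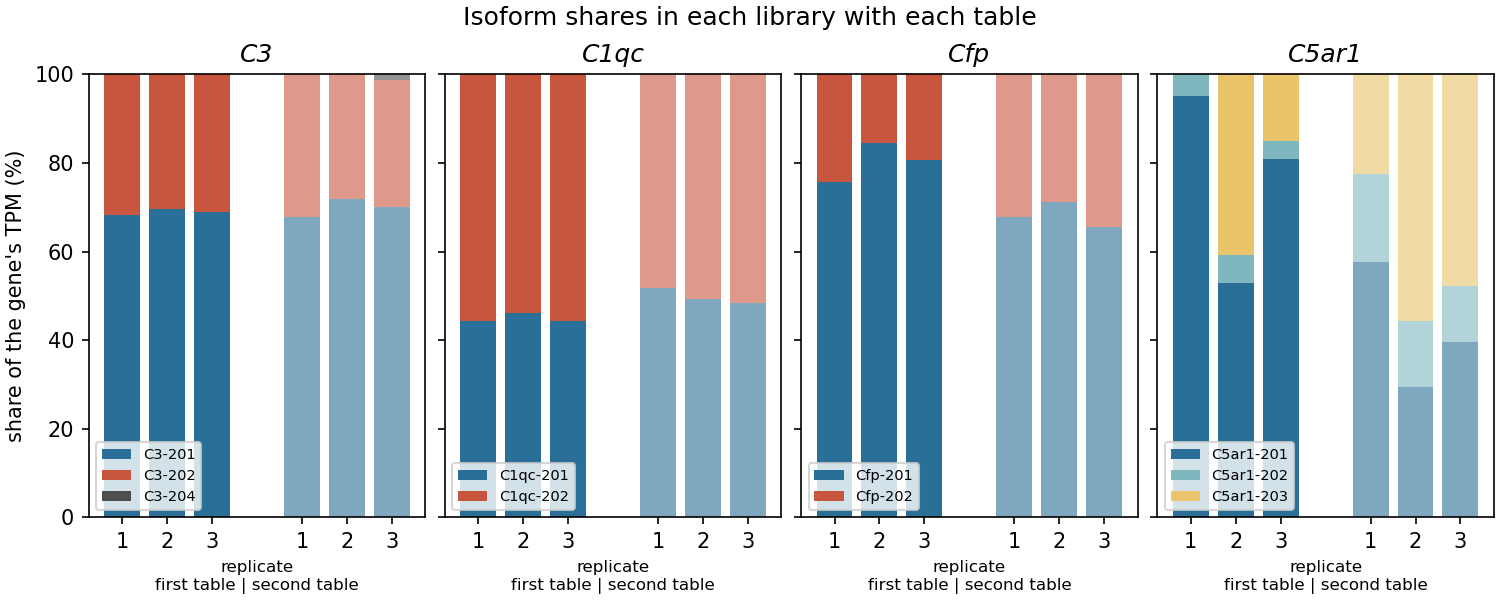
Share of each gene's TPM (%) held by its isoforms in replicates 1, 2 and 3, with the first transcript table at the left of each panel and the second, paler, at the right. The shares of C1qc and C3 are similar in all bars, while C5ar1-203 ranges from 0 to 55.8%.

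The remaining pathway was followed in 49 further complement genes, of which 9 (18.4%) had at least 1 TPM in every library, beside 35.7% of coding genes. No count was found for 19 (38.8%), beside 33.2% of coding genes, and the median log2(TPM + 1) of the 49 was 0.01. These lists, too, were chosen with earlier results of these data known. The second table put 19 of the 49 at 1 TPM or more, beside 50.0% of coding genes. Of 15 genes that start the classical and lectin pathways, 0 reached that level in the gene table and 2 in the second, and 7 had no count. Of 8 genes of the alternative and terminal pathways 0 reached it in the gene table and 1 in the second, and 7 had no count, among them Hc, which encodes C5, Cfd, which encodes factor D, and C9, the pore-forming component. By counting error alone, a count of 0 allows up to 3 counts in each library, and the choice of table can matter more. Masp1, a lectin-pathway gene with 0 counts in the gene table, had 374, 459 and 475 estimated counts in the second. Cfd and C9 had 0 in both.

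Of 8 membrane regulators, 2 were at 1 TPM or more in every library in the gene table and 5 in the second. Cr1l, known as Crry, the rodent membrane regulator of C3 convertases, had 18.7, 34.2 and 25.7 TPM in the gene table, below Cfp in each library. In the second table it had 50.5, 61.9 and 51.4 TPM, above Cfp in replicates 1 and 3. Cd46, also a membrane regulator, had 1.00, 1.81 and 1.28 TPM.

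Of 9 further receptor genes, 6 were at 1 TPM or more in the gene table and 8 in the second. Itgb2, the shared chain of the integrin complement receptors CR3 and CR4, had 29.3, 46.2 and 28.9 TPM, and its partners Itgam and Itgax had means of 8.61 ± 4.62 and 4.64 ± 2.72 TPM (SD, n = 3). Lrp1, an endocytic receptor with C1q among its ligands, had 68.4, 120 and 90.9 TPM, and Cd93, once described as a C1q receptor, had 17.5, 34.9 and 23.9 TPM. Calr, which encodes the C1q-binding chaperone calreticulin, had 18.2, 22.3 and 19.1 TPM. All 6 receptors were highest in replicate 2 in TPM, as most coding genes were and C3 was not. In CPM, Itgax and Calr were highest in replicate 1.

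**Figure D5:**
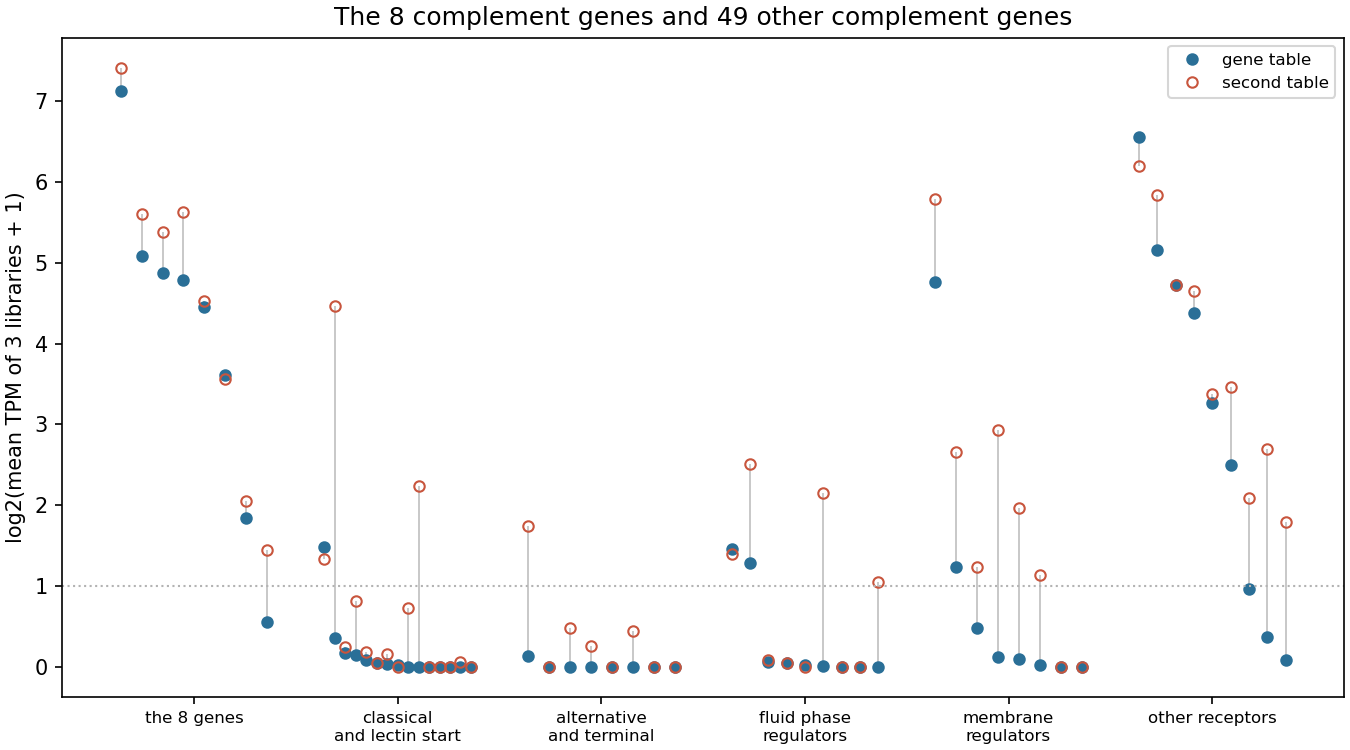
Mean level as log2(mean TPM + 1) of the 8 genes and of 49 other complement genes by list, with filled circles for the gene table and open circles for the second table joined by a line. The dotted line marks 1 TPM. Most genes of the starting, alternative and terminal lists lie at or near 0.

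Outside the naming rule, 3 genes were picked after their values were seen. C4a, a copy of the C4 gene, had 2.23, 2.37 and 0.80 TPM, and its split from the near-identical C4b is uncertain. C5ar2, the second C5a receptor, had 0.71, 1.02 and 1.11 TPM beside a mean of 28.4 TPM for C5ar1. In the second table C5ar2 had 3.05, 3.47 and 3.25 TPM beside a mean of 40.7 TPM for C5ar1, a smaller gap. C2, the neighbour of Cfb and the classical counterpart of factor B, had 0.57, 0.28 and 0 TPM in the gene table but 17.6, 23.3 and 22.3 TPM in the second table. There C2-203, a processed transcript, held 97.5% ± 1.91 of its TPM (SD, n = 3), so the C2 level depends on the table used.

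In the retained-intron test, 7 of the 49 further genes entered, of which 2 were higher and 3 lower for retained introns, beside 35.5% higher and 31.9% lower over 5597 genes. Calr (1.69, SE 0.16, limma adjusted p = 2.807e-05) and Cr1l (0.95, SE 0.18, limma adjusted p = 0.00163) were higher. Cr1l turned to -0.86 with the second table, as Cd46 turned from -1.25 to 1.45, while Calr kept its sign with 1.97. With TPM averaged per annotated transcript Calr was 0.19 (limma adjusted p = 0.254) and no longer passed the threshold. Lrp1 (-1.41) was lower, and kept that sign in the second table. Retained-intron isoforms, too, cannot be told apart here from RNA not yet spliced.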

How the data were processed

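Each library had 3 deposited tables. Per the file headers, a gene table and a transcript table hold an expected count and a TPM, with column names as in RSEM output, and another transcript table, called the second table, holds an estimated count and a TPM, with names as in kallisto output. Per the labels the build was mm10, and the deposited text files name GENCODE M21. The strand setting, programs and versions were not given in the sources used here. Overlapping genes are therefore uncertain. TPM by the authors covers all rows of a table. Replicates were not pooled.

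Levels are TPM of the gene table, with mean and SD over 3 libraries. CPM was computed from deposited expected counts of rows that name a gene. Differences within libraries used log2(TPM + 1) and exact sign-flip tests. Isoform classes were compared with limma 3.58.1 (intercept only, variance trend, 0.5 TPM added, mean summed TPM of at least 1, Benjamini-Hochberg adjusted p under 0.05), checked on simulated data. edgeR 4.0.16 and DESeq2 1.42.0 gave scaling factors only, from rounded expected counts. R was 4.3.3 and python 3.11.15. Libraries were not copies of each other by chi-square per degree of freedom over all genes with counts. It was 26.0 for replicates 1 and 2, 11.0 for 1 and 3, and 26.2 for 2 and 3, so both pairs with replicate 2 were higher.

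All 8 genes were named, with the 2 highest transcripts of each and any with at least 0.2 of its TPM in either table, overlapping genes, further complement genes at 1 TPM or more (1 of them is not reported here), and the 3 genes nearest in pattern to C3 and Cfp. Members and lists were chosen with earlier results of these data known. Alternatives covered the second table, scaling, pseudocounts, filters and leaving out each library.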

Additional observations from a re-analysis of the deposited data

How the results depend on the processing

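Of 276 alternative values, 216 kept the reported value or call, 57 moved and 3 reversed. A difference was counted as reversed only where it had exceeded its spread, and an isoform ratio where its sign turned. Levels and differences were kept if they stayed within the SD. Most counts, and SDs, were kept within a set fold range, so 6 or 8 detected complement genes in place of 7 were kept. The reversals were Cfp minus C5ar1 at -0.51 and C1qc minus C3ar1 at -1.35 with log2(CPM + 1), which does not divide by length, and the C3 ratio of processed to coding isoforms at 0.43 with TPM averaged per annotated transcript. C5ar1 minus C1qb, within its spread at 0.11, changed sign to -0.23 with the second table. C1qb minus C1qa was 2.92 on the log2(TPM + 1) scale, 3.57 with the second table, 3.24 with TPM over coding genes and 3.30 with a pseudocount of 0.1. The second table raised the genes with higher processed isoforms from 394 to 1461, and those with higher retained-intron isoforms from 1988 to 3198. A minimum of 5 TPM, which tests fewer genes, lowered the genes with lower isoforms from 2675 to 1517 and from 1784 to 1116. The level of each complement gene moved with TPM over coding genes, since that measure divides by the coding total only. C3, for example, went from 139 to 660 TPM. The cause of the other changes was not tested. The isoform calls for C3, Cfp and C1qc held when each library was left out. Depth limits Cfb and C1qa most, with under 50 expected counts in every library. No paired analysis was possible because the libraries form 1 group and leave no second group to pair. Genes were compared within each library.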
